A study of Mus musculus with 28 samples.

Results

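The genes described here are 8 components of the tight junction: the claudins Cldn3, Cldn4, Cldn7 and Cldn18, occludin (Ocln), junctional adhesion molecule A (F11r), zonula occludens 1 (Tjp1) and cingulin (Cgn). They were listed by name, under a rule that uses no measured value but was set with earlier results of these data known, and are 8 of the 23478 gene rows in each of the study's gene count tables. All 8 passed the filter on low counts in both tables. The study altered the transcriptional coactivator Yap in mouse alveolar type 2 (AT2) cells of the lung and measured RNA in 19 libraries and open chromatin, by ATAC-seq, in 9. Yap active mice were Stk3flox/flox/Stk4flox/flox SftpcCreert2 (6 RNA libraries) and their controls Stk3flox/flox/Stk4flox/flox (4). Yap deleted mice were Yapflox/flox SftpcCreert2 (5) and their controls Yapflox/flox (4). Recombination was induced at postnatal day 3, and lungs were collected at postnatal day 14 in every group. The driver is a tamoxifen-dependent Cre under the surfactant protein C gene, which is active in AT2 cells, and no group labelled here carried that driver without floxed alleles. Cells were the EPCAM (CD326) positive fraction left after depletion of CD45, CD16/32, Ter119, CD90.2, CD271 and CD31, so other epithelial cells could be among them. The 9 ATAC libraries, made from 50000 cells each, comprised 3 with active Yap, 2 with Yap deleted, and 3 and 1 controls respectively.

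Tight junctions close the gap between neighbouring epithelial cells near their apical side. Claudins are the membrane proteins that decide which ions and solutes pass, occludin and F11r are further membrane proteins of the junction, and Tjp1 and cingulin are scaffolds that tie them to actin and myosin. In the alveolus, where the barrier keeps fluid out of the air space, claudins 3, 4 and 18 are the best known. The Hippo kinases encoded by Stk3 and Stk4 restrain Yap, and Hippo signalling responds to cell contact. Mice without claudin 18 are known for high Yap activity in their AT2 cells. The labels give no separate aim for junction genes. The question put to them here is whether their RNA, or chromatin listed beside them, differed when Yap was activated or removed.

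Library totals ran from 35.0 to 43.5 M counts in one table and from 31.9 to 42.9 M in the other. Several libraries stood apart from others of their own label. In the Yap active table the first principal component of all genes other than the 8 (57% of the variance) placed active library 1 with controls 1 to 3 (scores 48.1 to 79) and control 4 with active libraries 2 to 6 (−72.1 to −13). Esr1, to which reads of the CreERT2 fusion can map, stood at 1.97 CPM in active library 1 and 160 CPM in control 2, while active libraries 2 to 6 held between 211 and 335. CPM is a gene's count per M counts of its library, with the library size scaled by TMM. Stk3, one of the targeted genes, was 49.5 CPM in active library 1 and 34.0 in control 4, against 30.6 to 35.4 in active libraries 2 to 6 and 50.2 to 54.6 in controls 1 to 3. Control 4 kept to its label in Esr1 (0.964 CPM) and in the other targeted gene, Stk4, at 120 CPM against 103 to 112 in controls 1 to 3 and 78.5 to 94.1 in active libraries 2 to 6, while active library 1 held 125 CPM of Stk4. In the Yap deleted table the component (55.8%) placed controls 1 and 2 (100.1 and 125.9) away from the other 7 libraries (−62.1 to −10.6), and Esr1 was 87.1 CPM in control 2. Yap1 itself ranged from 78.3 to 142 CPM after deletion and from 119 to 215 in the 4 controls, the lowest being control 2. Xist, which marks female cells, was 249 to 756 CPM in 4 Yap active libraries (1, 2, 3 and 6) and 1 control (4), and 1.15 to 2.60 CPM in the other libraries of that table. Sex was thus not balanced between active and control mice. In the Yap deleted table Xist was 304 and 387 CPM in deleted libraries 1 and 3, 320 in control 3 and 1.28 to 3.16 in the rest. The part of sex in the results was not tested. Every library stayed in its labelled group.

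All 10 AT2 markers, among them Sftpc, had counts in every library. Sftpc itself varied widely, at 2854 and 2064 CPM in deleted libraries 1 and 2 and 24307 to 28125 in deleted libraries 3 to 5. Markers of several cell types moved with the sets, and those of others overlapped between them. The summed level of 10 AT2 genes was 92797 to 150708 CPM in active libraries 2 to 6 with control 4 and 43354 to 66972 in active library 1 with controls 1 to 3. Of these AT2 genes, Lamp3, Slc34a2 and Sftpa1 taken singly overlapped between the sets. The sum of 7 airway secretory genes, from cells that are EPCAM positive too, was 11342 to 19396 CPM in the first set and 3534 to 5197 in the second. Summed mesothelial genes (4 genes) ran the other way, at 103 to 385 and 560 to 906 CPM. Fibroblast genes (6) summed to 901 to 3690 CPM in the first set and 3203 to 6138 in the second, with some overlap. The AT1 sum (10 genes, for the flat cells of the alveolus) overlapped between them, at 6281 to 9045 and 3429 to 9044. So did the ciliated sum (721 to 1214 and 826 to 1001) and the leukocyte sum (34.3 to 69.2 and 41.8 to 105). The sum of 6 transitional alveolar genes, among them Krt8 and Cdkn1a, did not overlap, at 976 to 1659 and 387 to 893 CPM. Endothelial genes without Cldn5 and Esam summed to 20.9 to 43.2 and 60.6 to 215 CPM. In the Yap deleted line, 6 endothelial genes, those left when Cldn5 and Esam, which are also on the junction lists, are set aside, summed to 1430 and 1083 CPM in controls 1 and 2, against 94.1 and 101 in controls 3 and 4 and 37.1 to 93.4 in the deleted libraries. Leukocyte genes (8) summed to 284 to 1094, 143 to 245 and 55.1 to 168 CPM in the same order, and fibroblast genes (6) to 6003 to 7251, 1993 to 3097 and 1794 to 5960. At most 1 of the 6 endothelial and 2 of the 8 leukocyte genes had 0 counts in any library. The AT2 sum was 33182 and 29990 in controls 1 and 2 and 63854 and 106187 in controls 3 and 4, and the airway secretory sum 8050 to 19402 and 20641 to 42047. The deleted libraries lay at 10581 to 25178 for the airway secretory sum. In such mixtures fewer cells of a type and less RNA per cell cannot be told apart. The share of these cells in the results on the 8 genes was not tested. The labels do not tie libraries to animals, so p-values measure the spread between samples, which may be technical.

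Cldn3 encodes a sealing claudin that in the alveolus belongs mainly to AT2 cells. It held 421, 1502, 1399, 1462, 1419 and 1188 CPM in Yap active libraries 1 to 6 and 431, 692, 498 and 1352 CPM in their controls 1 to 4. Active library 1 lay below every control, control 4 lay among active libraries 2 to 6, and the groups overlapped. The log2 fold change was 0.73 ± 0.40 SE (edgeR quasi-likelihood test, adjusted p = 0.367). After Yap deletion Cldn3 stood at 1196, 1035, 998, 1266 and 985 CPM, against 296, 255, 1134 and 1330 CPM in controls. The deleted libraries were tight, while the controls split into a low and a high pair (log2 fold change 0.54 ± 0.48 SE, adjusted p = 0.582). The change in one line minus that in the other was 0.19 ± 0.64 SE (adjusted p = 0.963). Its promoter is shown because both of the authors' Yap active peak lists covered it. The 250 bases before the start (RefSeq, GRCm38.p6, chr5:134985964-134986213, plus strand) are written 5′ to 3′ with a GC box in capitals:
Cldn3: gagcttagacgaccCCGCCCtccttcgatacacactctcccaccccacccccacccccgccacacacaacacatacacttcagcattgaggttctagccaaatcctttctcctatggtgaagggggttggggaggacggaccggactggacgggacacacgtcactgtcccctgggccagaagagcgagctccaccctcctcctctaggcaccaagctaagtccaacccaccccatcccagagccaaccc

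Cldn4, a claudin that is known to be raised in injured alveolar epithelium, is the neighbour of Cldn3 on chromosome 5, with 39.3 kb between the genes. Its level was 39.9, 64.1, 54.2, 28.7, 43.7 and 43.8 CPM in the Yap active libraries and 23.3, 39.9, 21.7 and 34.2 CPM in controls. All but active library 4 were at or above the highest control, and the groups overlapped. The log2 fold change was 0.62 ± 0.24 SE in edgeR (unadjusted p = 0.0267, adjusted p = 0.366). In the other line Cldn4 was 63.2, 61.4, 51.0, 95.6 and 48.1 CPM after deletion and 20.1, 11.1, 108 and 93.0 CPM in controls. Controls 1 and 2 were below the range of the deleted libraries, control 3 was above it and control 4 near its upper end (log2 fold change 0.14 ± 0.60 SE, adjusted p = 0.917). Between lines the change differed by 0.48 ± 0.66 SE (adjusted p = 0.910). Cldn4 and Cldn7 are the pair with an unadjusted p under 0.05 in the Yap active line, and their promoters are printed for that reason. That of Cldn4 (chr5:134946935-134947184, minus strand) holds 2 AP-1 matches and 1 GC box, in capitals:
Cldn4: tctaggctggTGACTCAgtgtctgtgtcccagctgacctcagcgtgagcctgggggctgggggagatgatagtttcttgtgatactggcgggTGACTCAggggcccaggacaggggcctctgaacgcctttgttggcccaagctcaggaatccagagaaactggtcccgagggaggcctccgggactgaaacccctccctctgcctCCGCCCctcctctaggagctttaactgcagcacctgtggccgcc

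Cldn7 encodes a claudin of lateral membranes that binds EPCAM, the protein by which the cells were selected. Yap active libraries held 95.5, 196, 180, 182, 202 and 212 CPM and controls 95.0, 118, 89.4 and 177 CPM. As for Cldn3, active library 1 sat with controls 1 to 3 and control 4 close to active libraries 2 to 6. The log2 fold change was 0.57 ± 0.25 SE in edgeR (unadjusted p = 0.0444, adjusted p = 0.366). Deleted libraries held 154, 132, 117, 159 and 111 CPM and their controls 64.8, 57.4, 158 and 152 CPM, again with a low and a high pair of controls (0.32 ± 0.32 SE, adjusted p = 0.621). The difference between lines was 0.26 ± 0.42 SE (adjusted p = 0.925). Cldn7 has 2 start sites in the RefSeq table. The 250 bases before the first (chr11:69964529-69964778, plus strand) carry 1 TEAD core in capitals, TEAD being the DNA-binding partner of Yap:
Cldn7: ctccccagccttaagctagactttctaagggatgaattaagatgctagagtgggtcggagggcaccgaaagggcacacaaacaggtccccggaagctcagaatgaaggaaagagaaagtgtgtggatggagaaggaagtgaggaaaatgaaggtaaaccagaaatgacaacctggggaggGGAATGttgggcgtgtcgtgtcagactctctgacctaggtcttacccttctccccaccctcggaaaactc

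Cldn18 encodes the claudin most typical of alveolar epithelium, and it has alternative start sites that are used in lung and stomach. The tables count the gene as a whole. Yap active libraries held 1624, 1974, 1841, 2279, 1883 and 2276 CPM and controls 1379, 1894, 1404 and 2224 CPM, with overlap through controls 2 and 4. The log2 fold change was 0.20 ± 0.19 SE (adjusted p = 0.529). After deletion it was 2072, 1202, 1123, 975 and 774 CPM, with library 1 well above the other 4. Controls held 844, 714, 2117 and 1360 CPM and spanned the same range (−0.03 ± 0.38 SE, adjusted p = 0.971). The summed AT1 genes, a list without Cldn18, were 8930, 4920, 5197, 3669 and 3374 CPM in the same deleted libraries and 4802, 3783, 13662 and 7026 CPM in the controls. The libraries with the most Cldn18, deleted library 1 and control 3, were thus also among those with the most AT1 RNA. Both also held Xist, at 304 and 320 CPM, as did deleted library 3 at 387 CPM. The part of AT1 RNA and of sex in the values was not tested. The difference between lines was 0.23 ± 0.42 SE (adjusted p = 0.929).

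**Figure D1:**
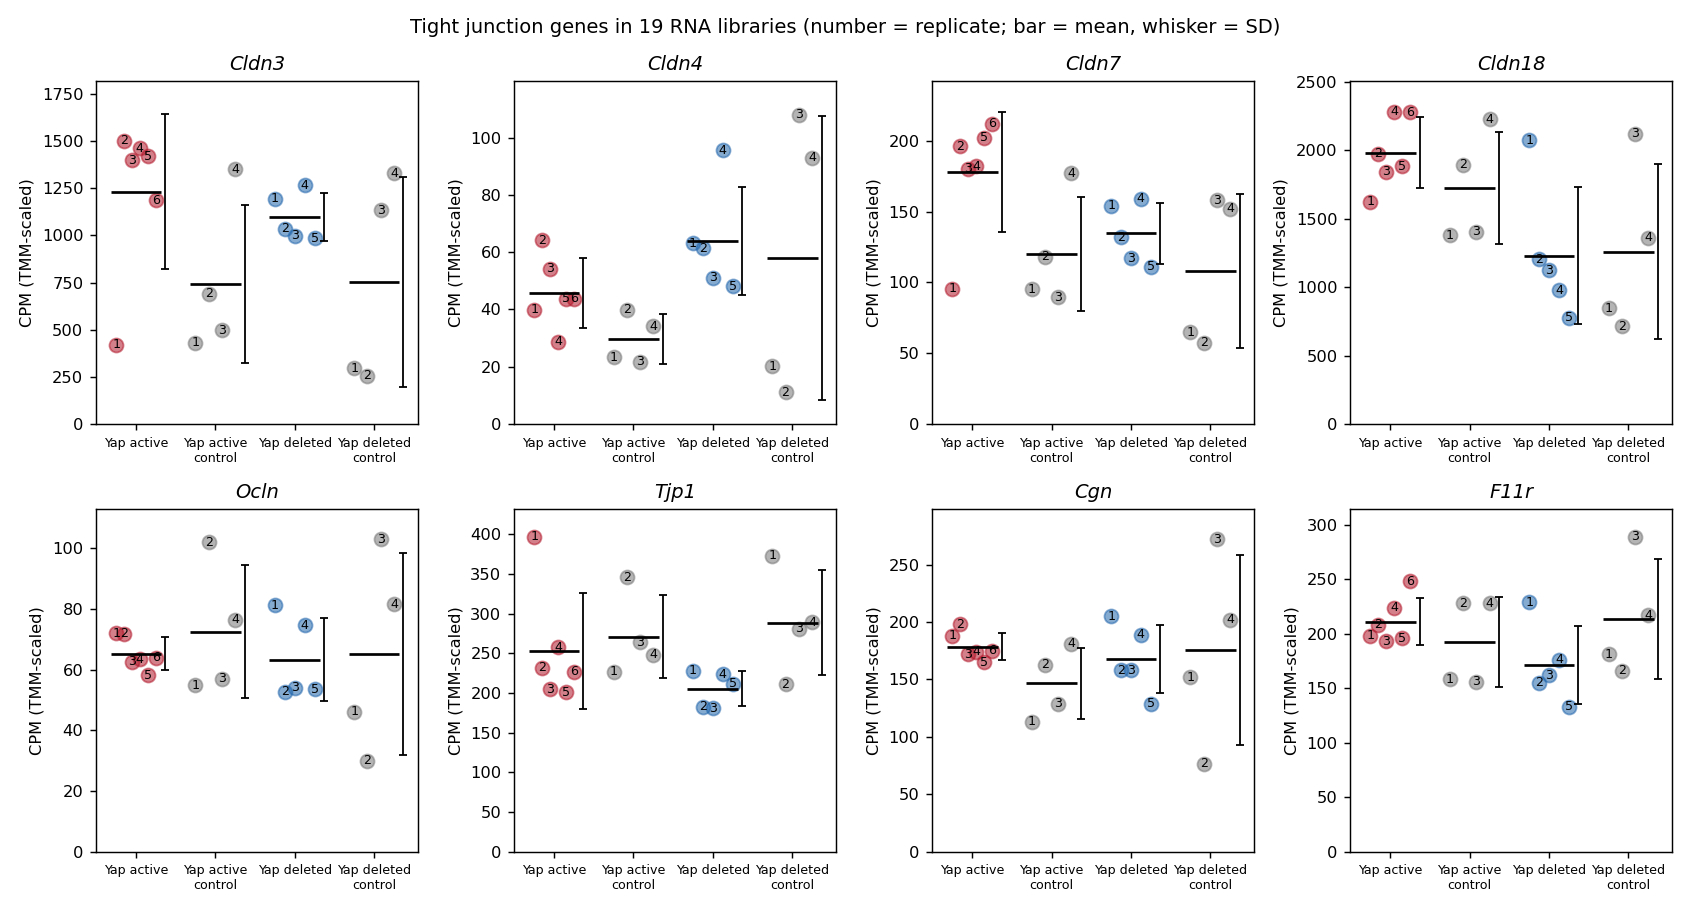
Level of each of the 8 genes in the 19 RNA libraries (y axis, CPM from 0; numbered points, replicates; bar, mean; whisker, SD) in the 4 groups on the x axis. Active library 1 stood apart from active libraries 2 to 6 for Cldn3 (421 CPM), Cldn7 (95.5 CPM) and Tjp1 (397 CPM), and deleted controls 1 and 2 lay low for Cldn3, Cldn4, Cldn7 and Ocln.

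Ocln encodes occludin, a membrane protein of the junction strands. It was 72.0, 71.9, 62.6, 63.4, 58.2 and 63.9 CPM in the Yap active libraries and 54.9, 102, 57.0 and 76.4 CPM in controls. The active libraries lay inside the range of the controls (−0.15 ± 0.17 SE, adjusted p = 0.596). Deleted libraries held 81.3, 52.7, 54.0, 74.6 and 53.6 CPM and controls 46.2, 30.0, 103 and 81.6 CPM. Every deleted library lay between the low and the high pair of controls (−0.04 ± 0.33 SE, adjusted p = 0.956). Between lines it differed by −0.11 ± 0.38 SE (adjusted p = 0.967).

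F11r encodes an immunoglobulin-like adhesion molecule that recruits polarity proteins to young junctions. Yap active libraries held 198, 208, 193, 224, 196 and 248 CPM and controls 158, 228, 156 and 228 CPM. The low controls were 1 and 3, and the log2 fold change was 0.13 ± 0.15 SE (adjusted p = 0.591). After deletion F11r was 229, 155, 162, 176 and 133 CPM, and in controls 181, 166, 289 and 217 CPM. Only control 3 exceeded every deleted library (−0.32 ± 0.20 SE, adjusted p = 0.466). At 0.45 ± 0.25 SE, its difference between lines had the smallest p of the 8 genes (edgeR, unadjusted p = 0.0961, adjusted p = 0.782). Both Yap active peak lists covered its promoter (chr1:171437311-171437560, plus strand), in which 1 AP-1 match and 1 GC box are in capitals:
F11r: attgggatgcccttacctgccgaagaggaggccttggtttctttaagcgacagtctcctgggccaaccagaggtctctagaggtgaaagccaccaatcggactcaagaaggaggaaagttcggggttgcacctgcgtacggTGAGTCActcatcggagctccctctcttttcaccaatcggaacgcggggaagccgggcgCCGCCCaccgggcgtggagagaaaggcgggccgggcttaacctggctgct

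Tjp1 encodes the scaffold ZO-1, which binds claudins with one domain and actin with another. Yap active libraries held 397, 232, 205, 258, 201 and 227 CPM and controls 227, 346, 264 and 248 CPM. Active library 1 was the highest of the 10, and the groups overlapped (−0.10 ± 0.21 SE, adjusted p = 0.784). Deleted libraries held 228, 183, 181, 224 and 212 CPM and controls 373, 211, 281 and 289 CPM. Controls 1, 3 and 4 were above every deleted library and control 2 was among them. The log2 fold change was −0.49 ± 0.17 SE in edgeR (unadjusted p = 0.0164, adjusted p = 0.264, and 0.0789 to 0.585 over the alternatives). Where Cldn3, Cldn4 and Cldn7 were low, in deleted controls 1 and 2, Tjp1 stood at 373 and 211 CPM. Active minus deleted came to 0.39 ± 0.28 SE (adjusted p = 0.806). A region that the authors list as opened in the Yap active line covers the whole of the promoter (chr7:65371245-65371494, minus strand), shown with its 2 GC boxes in capitals:
Tjp1: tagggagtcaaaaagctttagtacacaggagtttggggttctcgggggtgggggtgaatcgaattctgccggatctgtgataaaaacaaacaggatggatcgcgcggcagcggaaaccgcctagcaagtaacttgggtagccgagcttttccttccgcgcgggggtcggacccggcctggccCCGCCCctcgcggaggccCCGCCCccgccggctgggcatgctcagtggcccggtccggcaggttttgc

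Cgn encodes cingulin, which links ZO-1 to myosin. It was 188, 198, 172, 174, 165 and 175 CPM in the Yap active libraries and 113, 163, 129 and 181 CPM in controls. Controls 1 to 3 lay below every active library and control 4 among them (0.29 ± 0.14 SE, adjusted p = 0.366). After deletion it was 205, 158, 158, 189 and 129 CPM, inside the wide span of the controls at 152, 76.6, 272 and 202 CPM (−0.07 ± 0.32 SE, adjusted p = 0.923). Between lines the change differed by 0.36 ± 0.35 SE (adjusted p = 0.858).

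With all libraries, no member passed the test in any comparison. For active Yap 0 of 8 had an adjusted p under 0.05, and edgeR called 0% of the 15685 genes tested. At an unadjusted p under 0.05, 2 of the 8 were higher (Cldn4 and Cldn7) and 0 lower, beside 6.65% higher and 5.98% lower among all genes. For deleted Yap 0 of 8 passed, beside 0.00632% of 15818 genes higher and 0% lower. At the unadjusted threshold 1 was lower (Tjp1) and 0 higher, against backgrounds of 9.18% and 6.13%. For the difference between lines 0 of 8 passed either threshold, where 0% of 16308 genes passed the adjusted one and 4.56% were higher and 1.91% lower at the unadjusted one. DESeq2 also called 0 members in each comparison, where it called 0.0893% of genes higher and 0.0255% lower, then 1.14% and 3.86%, and for the difference 0.0736% and 0.0307%. The median log2 fold change of the 8 was 0.24, −0.04 and 0.31 in the 3 comparisons, against −0.01, 0.01 and 0.02 over all genes tested.

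No member had groups that did not overlap in either line. Over all genes 0.465% were higher and 0.478% lower without overlap in the Yap active line, and 2.64% and 1.25% in the Yap deleted line. Ordered by group mean, Cldn3 ran from Yap active (1232 ± 412 CPM, SD, n = 6) through Yap deleted (1096 ± 127, n = 5) and its control (754 ± 558, n = 4) to the Yap active control (743 ± 421, n = 4). Cldn4 was highest in Yap deleted libraries (63.8 ± 18.9) and lowest in the Yap active control (29.8 ± 8.73). Cldn7 and Cldn18 were highest in Yap active libraries (178 ± 42.2 and 1979 ± 258). For each of the 8 genes every neighbouring pair in this order of groups overlapped. Both tables were scaled separately, so an order across lines also carries that difference.

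**Figure D2:**
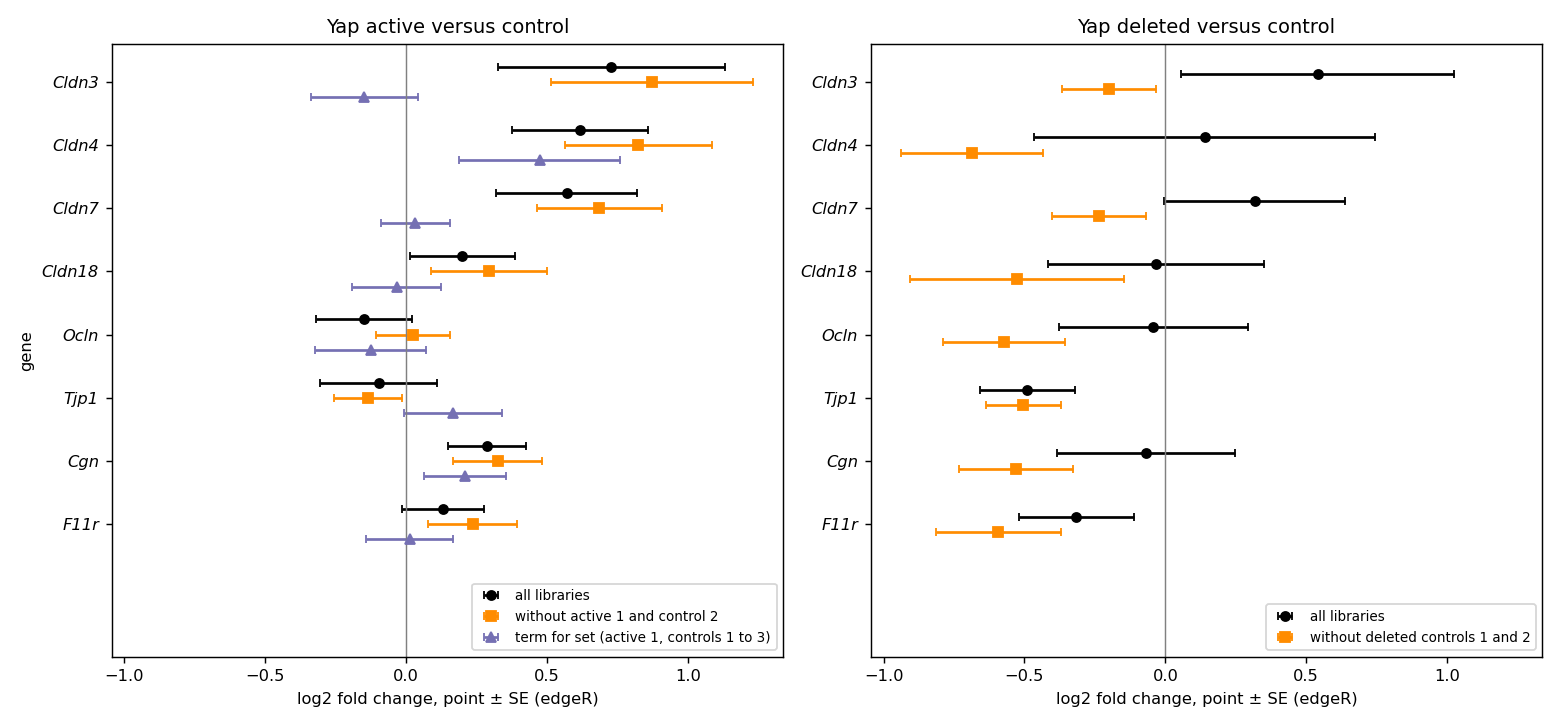
Log2 fold change of the 8 genes against control (x axis; point, estimate; whisker, SE) in the Yap active line (left) and the Yap deleted line (right). Black points use all libraries. The coloured points show that the term for the library set moved Cldn3 from 0.73 to −0.15, and that leaving out deleted controls 1 and 2 moved Cldn4 from 0.14 to −0.69.

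Because libraries stood apart within groups, the values were also read along those sets. For Cldn3 and Cldn7, active libraries 2 to 6 with control 4 all lay above active library 1 with controls 1 to 3, as did 21.5% of all genes. No member showed the opposite order, which 17.9% of all genes did. The mean log2 difference between the sets was 1.47 for Cldn3 and 0.95 for Cldn7, and 0.52 for Cldn4, 0.41 for Cldn18, 0.29 for Cgn and 0.23 for F11r, while Ocln (−0.07) and Tjp1 (−0.40) went the other way. Within the sets the labels parted Cldn3 and Cldn7 less. Active libraries 2 to 6 minus control 4 gave 0.04 for Cldn3 and 0.13 for Cldn7, and active library 1 minus the mean of controls 1 to 3 gave −0.33 and −0.07. Cldn4 was at 0.40 within the first set and 0.54 within the second, and Cgn at −0.03 and 0.49. These within-set values compare a single library with the rest and carry no test. In the second set, Esr1 went against the label in active library 1 (1.97 CPM) and in control 2 (160 CPM). Values from that set, and the set term that uses them, may thus not contrast active with normal Yap. With a term for the set, an alternative added after the data were seen, Cldn3 was at −0.15, Cldn7 at 0.03 and Cldn4 at 0.47, and the adjusted p was 1 for each of the 8.

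Leaving out active library 1 and control 2, whose Esr1 went against the label (chosen after the data were seen), gave 0.87 for Cldn3 (unadjusted p = 0.0377), 0.82 for Cldn4 (0.0115) and 0.69 for Cldn7 (0.0127) in edgeR. Their adjusted p was 0.157, 0.124 and 0.125, so 0 of 8 were called, beside 0.0833% of genes higher. At an unadjusted p under 0.05, 3 of the 8 were higher, beside 13.6% of all genes. In limma-voom each library was weighted by how closely it followed its labelled group, not by a measured quality. In that fit 6 of the 8 rose, with Cldn3 at 1.42 and Cldn4 and Cldn7 at 0.96. Cgn was at 0.46, Cldn18 at 0.40 and F11r at 0.28 (limma-voom, adjusted p from 0.000577 to 0.0461). The mean log2 differences between the library sets were 1.47, 0.52, 0.95, 0.29, 0.41 and 0.23 for these genes in the same order. The limma-voom fit called 28.5% of all genes higher and 27.9% lower. Over all alternatives the adjusted p of Cldn3 in the Yap active line ran from 0.000578 to 1, that of Cldn4 from 0.00484 to 1 and that of Cldn7 from 0.000577 to 1.

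Deleted controls 1 and 2 held less Cldn3, Cldn4, Cldn7 and Ocln than all 7 other libraries of their table, as did 25.7% of all genes, and 24.1% were above in both. Their mean log2 distance from controls 3 and 4 was −2.16 for Cldn3, −2.71 for Cldn4, −1.34 for Cldn7, −1.29 for Ocln, −1.13 for Cldn18, −1.11 for Cgn and −0.53 for F11r, but −0.02 for Tjp1. Without these controls all 8 log2 fold changes after Yap deletion were below 0, as were 49.1% of all genes, and their median was −0.53. In this contrast the AT1 sum was 13662 and 7026 CPM in controls 3 and 4 and 3374 to 8930 after deletion, and the airway secretory sum 20641 to 42047 and 10581 to 25178. The part of these cells was not tested. Cldn4 came to −0.69 ± 0.25 SE (unadjusted p = 0.0277), F11r to −0.59 ± 0.22 SE (0.0296), Ocln to −0.57 ± 0.22 SE (0.0302) and Cgn to −0.53 ± 0.20 SE (0.0320) in edgeR. Tjp1 came to −0.50 ± 0.13 SE (unadjusted p = 0.00608, adjusted p = 0.572), close to its value with all libraries. So 5 of 8 were lower at an unadjusted p under 0.05, beside 3.71% of all genes, and 0 passed after adjustment (adjusted p from 0.572 to 0.891), beside 0.00622% of genes higher and 0% lower. This fit rests on 2 controls and was added after the data were seen. Leaving out controls that were low for a gene lowers its log2 fold change by construction. Members also share profiles (Pearson r = 0.86 for Ocln and Cgn), so counts of members without these controls are not counts of independent genes. The difference between lines was then 1.28 ± 0.37 SE for Cldn4 (unadjusted p = 0.00355), 0.79 for Cgn (0.00379) and 0.70 for F11r (0.0149) in edgeR. In that fit 4 of 8 were higher at the unadjusted threshold, beside 4.76% of all genes, with adjusted p from 0.521 to 0.615 over the 8. Across every alternative the lowest adjusted p of a member was 0.0789 (Tjp1) after deletion and 0.267 (F11r) for the difference between lines.

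A ratio to Cdh1, the adherens junction cadherin of epithelial cells, was computed after the data were seen as a measure within each library. Cdh1 itself was 553, 402, 1009 and 1112 CPM in deleted controls 1 to 4 and 846 to 1133 CPM after deletion. Controls 1 and 2 also held endothelial genes at 1430 and 1083 CPM. Reads of both genes in a ratio need not come from the same cells, which was not tested. Per unit of Cdh1, Tjp1 was 0.183 to 0.230 in the deleted libraries and 0.674, 0.524, 0.278 and 0.260 in the controls. Ocln was 0.0546 to 0.0729 after deletion and 0.0835, 0.0745, 0.102 and 0.0734 in controls. For these 2 of the 8, all deleted libraries lay below all controls, as 1.4% of all genes did on this ratio, and 0 of 8 lay above (0.234% of all genes). The margin was 0.0729 against 0.0734 for Ocln. A ratio to another epithelial gene was not computed, so the separation is given for Cdh1 only. In the Yap active line 0 of 8 were set apart on this ratio (0.0893% of genes higher, 0.893% lower). A ratio shows that 2 genes were unequal in their change, not which of them changed.

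**Figure D3:**
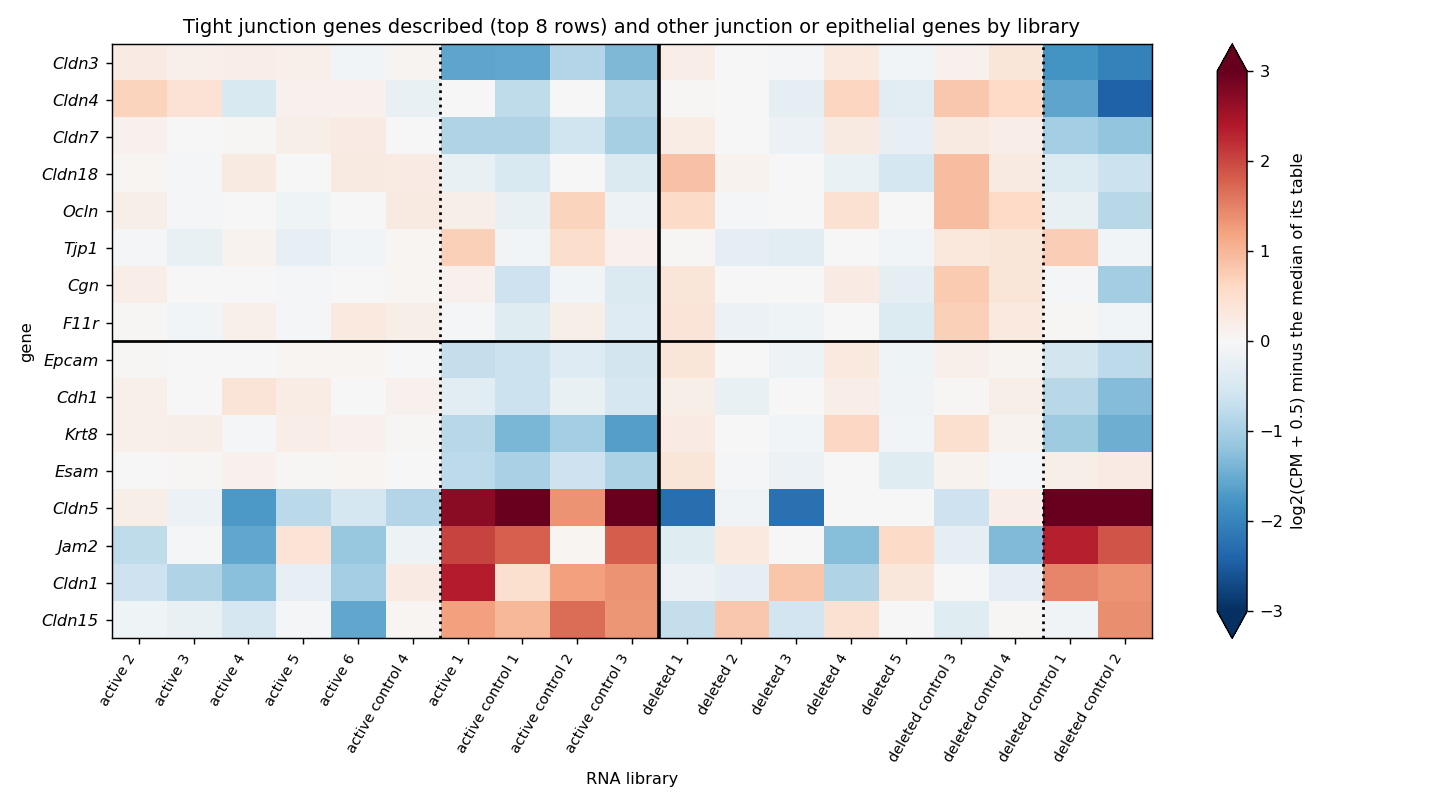
Colour gives log2(CPM + 0.5) minus the gene's median over its own table (rows, genes, the upper 8 being those described; columns, RNA libraries, ordered by set). Cldn3 and Cldn7 follow Epcam and Cdh1, low in active library 1, active controls 1 to 3 and deleted controls 1 and 2, while Cldn5 is high in those libraries, at 395 and 440 CPM in deleted controls 1 and 2.

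Across the 19 libraries, each table centred on its own mean, Cldn3 and Cldn7 had the most similar profiles of any pair of members (Pearson r = 0.97 of log2 CPM). Ocln and Cgn followed at 0.86, Cldn4 and Cgn at 0.85 and Cldn18 and F11r at 0.85. Tjp1 was apart, with r from −0.44 (Cldn3) to 0.35 (Ocln). These values are descriptions, since the libraries share the library sets described. Of 11512 genes at 5 CPM or more, those closest to Cldn3 were Stard10 (0.99), Sdc1 (0.99) and 1810019J16Rik (0.98). Those closest to Cldn7 were Spint2 (0.98), Crb3 (0.98) and Epcam (0.97), and to Cldn4 Tmprss2 (0.95), Slc39a4 (0.95) and Ripk4 (0.92). Cldn18 was nearest to Arxes2 (0.95), Efna1 (0.95) and Tspan15 (0.94), and Ocln to Epb4.1l5 (0.93), Arhgef28 (0.92) and Gramd2 (0.92). For Cgn they were Sh3bp4 (0.95), Pkp2 (0.94) and Eya2 (0.94), for F11r Tead4 (0.91), Dennd3 (0.90) and Cadm1 (0.90), and for Tjp1 Otud7b (0.90), Snx13 (0.89) and Ttc39b (0.88).

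Other junction genes were read from lists chosen with earlier results of these data known, and none of their genes passed the test in any comparison. With Yap active, 12 of 17 other claudins could be tested, 7 with a log2 fold change above 0 and 5 below. Cldn10 was at 0.75 ± 0.29 SE, Cldn15 at −1.12 ± 0.47 SE and Cldn5, the endothelial claudin, at −2.60 ± 1.15 SE. Of 14 other membrane proteins, 3 were higher and 1 lower at an unadjusted p under 0.05 (6.65% and 5.98% of all genes). Among the higher was Lsr (0.61 ± 0.23 SE), the receptor at corners where 3 cells meet, and the lower was Ildr2 (−1.20 ± 0.48 SE). Of 25 scaffold and polarity genes 3 were higher and 0 lower, led by Tjp3, which encodes ZO-3 (0.59 ± 0.20 SE). The matriptase gene St14 (0.79 ± 0.31 SE) and its inhibitor Spint2 (0.47 ± 0.21 SE) were 2 of 4 protease genes at that threshold. Jup (0.61 ± 0.24 SE) and Ajuba (0.30 ± 0.12 SE) were among 3 of 13 adherens junction genes, and Evpl (0.45 ± 0.19 SE) was 1 of 8 desmosome genes. All 8 transcription factors of epithelial junctions had a log2 fold change above 0, as had 49.4% of all genes, and 3 were higher at the threshold, Elf3 (0.61 ± 0.19 SE), Grhl1 (0.55 ± 0.18 SE) and Klf5 (0.72 ± 0.31 SE). The adjusted p of each of these genes was 0.366 in edgeR. Many followed the library sets. Active libraries 2 to 6 with control 4 stood above the other set by 1.24 for St14, 1.13 for Klf5, 0.92 for Lsr and 0.78 for Tjp3 (mean log2 difference), whereas active libraries 2 to 6 differed from control 4 by 0.09, 0.03, 0.12 and 0.16. The median of the 8 transcription factors was 0.53 between the sets and 0.00 against control 4.

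After Yap deletion the same lists held values in both directions, and no difference between lines was called. Of the 25 scaffold genes 17 had a log2 fold change below 0 and 8 above, beside 7748 of all 15818 genes tested below 0. Mpp5, which encodes the polarity scaffold PALS1, was at −0.60 ± 0.17 SE (edgeR, unadjusted p = 0.00679, adjusted p = 0.247). It held 59.8, 44.6, 51.0, 46.4 and 44.5 CPM after deletion and 76.2, 52.2, 96.1 and 74.0 CPM in controls, with overlap through control 2. The other scaffold genes at the unadjusted threshold were Amotl1 (−0.56 ± 0.24 SE) and Pard3 (0.35 ± 0.15 SE). Over all genes 9.18% were lower and 6.13% higher at that threshold. Ajuba, a LIM protein that restrains Hippo kinases at adherens junctions and is itself a known Yap target, was at −0.80 ± 0.28 SE (adjusted p = 0.271), and Limd1 of the same family at 0.33 ± 0.12 SE (adjusted p = 0.270). Ajuba also had the smallest p of the junction lists for the difference between lines (1.10 ± 0.31 SE, edgeR, unadjusted p = 0.0024, adjusted p = 0.696). Cldn5 was at −4.53 ± 1.20 SE (adjusted p = 0.247), with 2.56 to 14.2 CPM after deletion against 395, 440, 8.92 and 16.2 CPM in controls. Its 2 high libraries are those in which the 6 other endothelial genes summed to 1430 and 1083 CPM.

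In chromatin, the authors' lists (mm10) hold 6017 opened and 1392 closed regions for active Yap, and 532 opened and 676 closed regions for deleted Yap. Each compares 2 libraries of one kind with 1 control library, per the region names, so they carry no replicate error here. The score is the authors' own and ranks regions within a list only. Of the 8 genes 2 were named as nearest to an opened region in the Yap active line (Tjp1 and Cldn18), beside 19.3% of all genes in the count tables. For closed regions it was 1 (Cldn18), beside 4.98%. After Yap deletion 0 of 8 were named for opened regions (2.04%) and 1 for closed ones (Cldn18, 2.41%). No region in these lists named Cldn3, Cldn4, Cldn7, Ocln, Cgn or F11r.

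Tjp1 had 2 opened regions in the Yap active line. The first is annotated as promoter, 27 bases upstream of a start site, at chromosome 7, 65370703 to 65371839, with a score of 56.5 (list median 42.8, rank 2331 of 6017), and covers the whole of the printed promoter. The second, at 65430600 to 65431504 (score 16.1, rank 5482), is annotated as intergenic, 59.8 kb upstream of that start, but lies within the span of Tjp1 in RefSeq (65296165 to 65527850), which includes a more distant start. Tjp1 RNA in the Yap active line was at a log2 fold change of −0.10 ± 0.21 SE.

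Around Cldn18 the lists of both lines met without sharing a region. With active Yap a region at chromosome 9, 99729644 to 99730552, 12.8 kb upstream, opened (score 18.5, rank 5154 of 6017), and one at 99723575 to 99724075, 6.56 kb upstream, closed (score 10.1, rank 882 of 1392). Both are annotated as intergenic. After Yap deletion a longer region closed at 99701873 to 99704444, in intron 1 of 4 of one transcript and 6.91 kb inside the gene from its second start, with a score of 42 (list median 19.7, rank 90 of 676). Cldn18 RNA after deletion was at −0.03 ± 0.38 SE with all controls and at −0.53 ± 0.38 SE without controls 1 and 2.

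**Figure D4:**
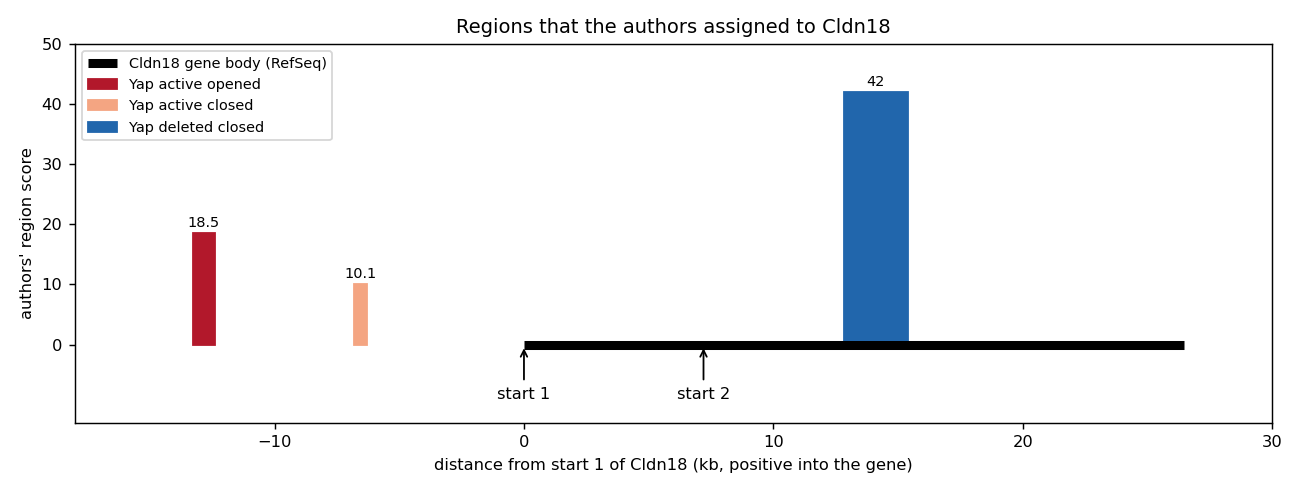
Regions that the authors assigned to Cldn18, by distance from its upstream start (x axis, kb, positive into the gene; bar width, region; bar height on the y axis, the authors' score, comparable only within a list). The region closed after Yap deletion (score 42) lies inside the gene, and those of the Yap active line, opened (18.5) and closed (10.1), lie upstream.

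Of the other junction genes listed, Cdh1, Cxadr and Cldn2 were named both for a region opened with active Yap and for one closed after Yap deletion. The regions overlapped for Cdh1 alone, which is described here after its regions were seen. The share of all genes named in both of these lists, or with overlapping regions, was not computed. These genes thus cannot be called particular in this. In its first intron a region opened in the Yap active line (chromosome 8, 106603347 to 106604247, score 17.9) and one closed after deletion (106603792 to 106604417, score 11.5). Cdh1 RNA was at 0.37 ± 0.19 SE in the Yap active line (adjusted p = 0.366) and 0.38 ± 0.30 SE after deletion (adjusted p = 0.534). Opened regions of the Yap active line named 3 of 17 other claudins, 7 of 14 membrane proteins, 11 of 25 scaffolds and 8 of 13 adherens junction genes. They also named 2 of 4 protease genes, 3 of 8 desmosome genes and 3 of 8 transcription factors, beside 19.3% of all genes. Closed regions named 1, 0, 3, 1, 1, 0 and 2 in the same order, beside 4.98%. These shares are over 23476 genes, whereas 15685 passed the filter on low counts in that line. A share over the genes that passed was not computed. The promoter of Lsr was covered by an opened region with a score of 113.

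The authors' peak lists of the Yap active line, 2 for active Yap and 2 for its controls, give a second view of the promoters, and the libraries behind each list are not stated. Of the 8 genes, Cldn3, Ocln, Tjp1, Cgn and F11r had a peak over the 250 bases before a start in the first Yap active list, which covered 29.1% of 32851 RefSeq promoters. In the second, covering 14.3%, these were Cldn3, Cldn7 (its second start) and F11r. In the 2 control lists, covering 4.97% and 3.4%, there were none. The authors' fold enrichment at Cldn3 was 2.01 and 1.72 and at F11r 2.00 and 1.77. The −log10 q of these promoter peaks was at most 0.323, so none reached a q of 0.05, and the lists themselves held 372, 35, 0 and 7 peaks that did. The opened regions of Tjp1 and Cldn18 overlapped a peak in the first Yap active list only (−log10 q 0.119, 0.00981 and 0.356). The Cldn18 region closed with active Yap overlapped one in the first control list only (0.246). The Cldn18 region closed after Yap deletion overlapped one in the first Yap active list (0.0236) and one in the second control list (0).

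Motifs were searched on both strands of the 250 bases before the 11 start sites that the RefSeq promoter table holds for the 8 genes. The more distant start of Tjp1 is not among them and was not searched. The GC box CCGCCC, bound by SP and KLF factors, was found for Cldn3, Cldn4, Cldn7 (second start), Ocln, Tjp1, Cgn (6 matches) and F11r, and in 32.7% of all promoters of that length. The TEAD core GGAATG was found for Cldn7 alone, before its first start (12.6% of all promoters), and the AP-1 letters TGACTCA for Cldn4 and F11r (4.46%). TTGGC, a single arm of the palindromic NFI site, was found for Cldn3, Cldn4, Cldn7, Cgn and F11r (41.5%) and is not marked in the printed sequences. The whole NFI site (0.0365%), the NKX2-1 type CACTTGA (2.68%) and the Grainyhead type AACCGGTT (0.116%) had no match in these windows. A match describes the letters, not a bound site.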

How the data were processed

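RNA-seq of 19 libraries and ATAC-seq of 9 libraries of sorted mouse lung epithelial cells were used. Per the submitters' processing notes, the authors used Trim Galore, Bowtie2, Cufflinks, DESeq and HOMER with mm10, and the counting program and annotation are not given in the sources used here. The deposited gene tables, 1 per line, hold read counts that were not normalized, as their whole numbers show. In the authors' region lists a score is given per region, annotated by HOMER per the file headers, and its scale is not stated. The authors' peak lists have MACS broad-peak columns: fold enrichment, −log10 p and −log10 q as the authors deposited them. Library totals were 31.9 to 43.5 M counts.

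Groups were compared in edgeR 4.0.16 (R 4.3.3) by its quasi-likelihood test with robust dispersion, two-sided, after filterByExpr and TMM, on every gene of a table, with Benjamini-Hochberg adjustment and a threshold of 0.05. The difference between lines came from one fit of the 19 libraries. The fits were tested on simulated data. SE is the log2 fold change divided by the square root of F. Set differences used a pseudocount of 0.5 CPM and profile similarity one of 1 CPM. The 8 genes and the lists of other genes were chosen with earlier results of these data known. Named beyond the 8 are, per list and comparison, up to 4 genes with the smallest p, and per member the 3 most similar genes. Alternatives were RLE scaling, no filter, DESeq2 1.42.0, limma-voom (limma 3.58.1) with sample weights, each library left out, and the replicate number as a block, and for regions other distance and score limits. Spreadsheet dates in place of 27 gene names stayed in the fits. Promoter letters come from RefSeq (GRCm38.p6, the primary assembly of mm10), in which all 8 genes matched by symbol.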

Additional observations from a re-analysis of the deposited data

Results flagged for a closer look

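Active library 1 lay far from the other 5 Yap active libraries for 3 of the 8 genes. Cldn3 was 421 CPM there against 1188 to 1502 CPM in the others, and its gap to the nearest library made up 0.71 of the group's range. Cldn7 was 95.5 CPM against 180 to 212 CPM (0.723 of the range). Tjp1 was 397 CPM against 201 to 258 CPM (0.708 of the range). Dixon's critical value for 6 samples is 0.625, and chance alone passes it in about 1 group in 20. The rule was applied to each of the 8 genes in each of the 4 groups. The share of all genes that it would flag was not computed, so the 3 cannot be called particular to these genes. Along the library sets, which place this library with controls 1 to 3, 21.5% of all genes split fully in one direction and 17.9% in the other. In the same library Esr1 was 1.97 CPM and Stk3 49.5 CPM, as given with the library sets. Its part in the group differences was read from the fits without it: leaving it out gave log2 fold changes for Cldn3, Cldn7 and Tjp1 of 0.90, 0.69 and −0.28, with adjusted p of 0.0736, 0.0571 and 0.173 in edgeR. Over all alternatives their adjusted p ran from 0.000578, 0.000577 and 0.149 to 1.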

How the results depend on the processing

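In 144 of 168 pairings of a member and an alternative that kept every replicate or left out a named set, the direction and the side of the threshold were as with the main test, 6 passed the threshold and 18 changed direction. In the Yap active line, genes called numbered 18 with DESeq2, 8845 with limma-voom and 13 without active library 1 and control 2, against 0, and members called numbered 6 with limma-voom, against 0. The term for the library set moved the members' median to 0.02, and gave Cldn3 −0.15, Cldn18 −0.03 and Tjp1 0.17. Ocln changed direction with limma-voom (0.05) and without active library 1 and control 2 (0.02). In the Yap deleted line, genes called numbered 792 with DESeq2, 0 with limma-voom and 0 with the block, against 1. Without deleted controls 1 and 2, Cldn3 was −0.20, Cldn4 −0.69 and Cldn7 −0.24. For the difference between lines, genes called numbered 17 with DESeq2 and 21 with limma-voom, against 0. With the set term, Cldn3 was −0.67 and Cldn7 −0.26 there, and Ocln was 0.07 without active library 1 and control 2 and 0.40 without deleted controls 1 and 2. The causes of these shifts were not tested.

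The replicate numbers were not taken as pairs, since not every correlation was over 0.1 in either line: correlations of same-numbered deviations were 0.519, 0.004, 0.053 and 0.479 in the Yap active line and −0.253, 0.438, 0.271 and 0.282 in the Yap deleted line. In 1 of 4 and 2 of 4 pairs both samples correlated best with their own number, so each line holds a hint of shared numbers for some pairs. With the replicate number as a block, edgeR called 0 genes in each comparison, Cldn18 (0.16), Ocln (0.15) and Cgn (0.15) changed direction in the Yap deleted line, and Cldn3 (−0.28), Cldn4 (−0.15) and Cldn7 (−0.09) in the difference between lines.

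Leaving out each replicate gave 0 to 2, 0 to 4 and 0 to 3 genes called in the Yap active line, the Yap deleted line and their difference, and 0 members called throughout. The members' median ran from 0.14 to 0.39, −0.25 to 0.29 and 0.00 to 0.49. In the Yap active line Cldn3 ran from 0.54 to 1.20, the highest without control 4, Ocln from −0.26 to 0.06 and Tjp1 from −0.28 to 0.04, the highest of each without control 2. In the Yap deleted line Cldn4 ran from −0.21 (without control 2) to 0.61 (without control 3), Cldn18 from −0.34 to 0.32, Ocln from −0.28 to 0.25 and Cgn from −0.32 to 0.21, the highest of these without control 3. Tjp1 stayed below 0 there, at −0.61 to −0.34. In the difference Cldn3 ran from −0.23 to 0.65, Cldn4 from −0.01 to 0.82, Cldn18 from −0.15 to 0.55 and Ocln from −0.42 to 0.13. Of the members named for opened regions in the Yap active line, 1 remained within 10 kb and 1 in the higher-scoring 50%, against 2, and for closed regions 0 remained in the higher-scoring 50%, against 1.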
